A study of Mus with 12 samples.

Results

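Fc gamma receptors bind the constant part of immunoglobulin G, and with them macrophages sense and engulf particles and cells coated with antibody. In the mouse, Fcgr1 encodes the high-affinity activating receptor and Fcgr3 a low-affinity activating receptor, and both signal through a shared gamma chain. Fcgr2b encodes the inhibitory receptor, whose inhibitory motif recruits a lipid phosphatase that dampens activating signals. Macrophages carry both kinds, so the balance between them sets how readily immune complexes activate the cell. The genes were taken by name, and all 3 of them are among the 754 gene probes of the panel and among the 682 genes tested.

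The counts came from NanoString probes, barcoded probes that are counted on single RNA molecules without amplification. The RNA came from digested kidneys, from which cells bearing the macrophage surface protein F4/80 were drawn with an antibody and magnetic beads. The 6 mice were 3 wild types (Aif-1+/+, WT; mice 12, 26 and 36) and 3 labelled as Aif-1 knockouts (Aif-1-/-, KO; mice 17, 23 and 32). Aif1 encodes a protein of macrophages, also called Iba1, that binds calcium and actin. All 6 mice underwent 30 min of ischemia of the left kidney, and both kidneys were taken at day 4, so that the right kidney, called contralateral here, came from an injured animal too. The 12 libraries thus formed 4 groups of 3, injured and contralateral kidneys of WT and of KO mice. The sources used here do not give the strain, age or sex of the mice.

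Libraries held 255274 to 904220 counts in total, and the geometric mean of their housekeeping genes ran from 118 to 901. Both libraries of WT mouse 12 (901 and 879) and the injured library of KO mouse 17 (701) stood above the other 9, which ran from 118 to 318. Adgre1, the gene of F4/80 itself, and Csf1r, the receptor gene for macrophage colony-stimulating factor, were well above the negative controls in every library, with raw counts of 230 to 1932 and of 195 to 1731. Kidney tubule genes were also abundant. The summed normalised count of 5 tubule genes ran from 12751 to 70818 in contralateral and from 4425 to 48464 in injured WT kidneys, and from 12733 to 16986 and from 6098 to 25575 in those of KO mice. The Aif1 probe did not separate the genotypes, with raw counts of 57 to 95 in WT and of 54 to 93 in KO libraries. The part of the gene that it binds is not given here, so it checked neither the labels nor the deletion.

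The Fc gamma receptor probes read above background in all 12 libraries. A raw count of 53.1, which is 2 SD above the mean of all negative controls, was taken as the limit. Raw counts ran from 103 to 914 for Fcgr1, from 181 to 1830 for Fcgr2b and from 69 to 986 for Fcgr3. The mean negative control of a library was 28.8 to 36.3, and the highest single negative control read 58. Fcgr3 came closest to the background, at 2.19 times the mean negative control in the contralateral kidney of KO mouse 23. Probes differ in how well they capture their RNA, so levels of different receptors are not set against each other here.

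**Figure D1:**
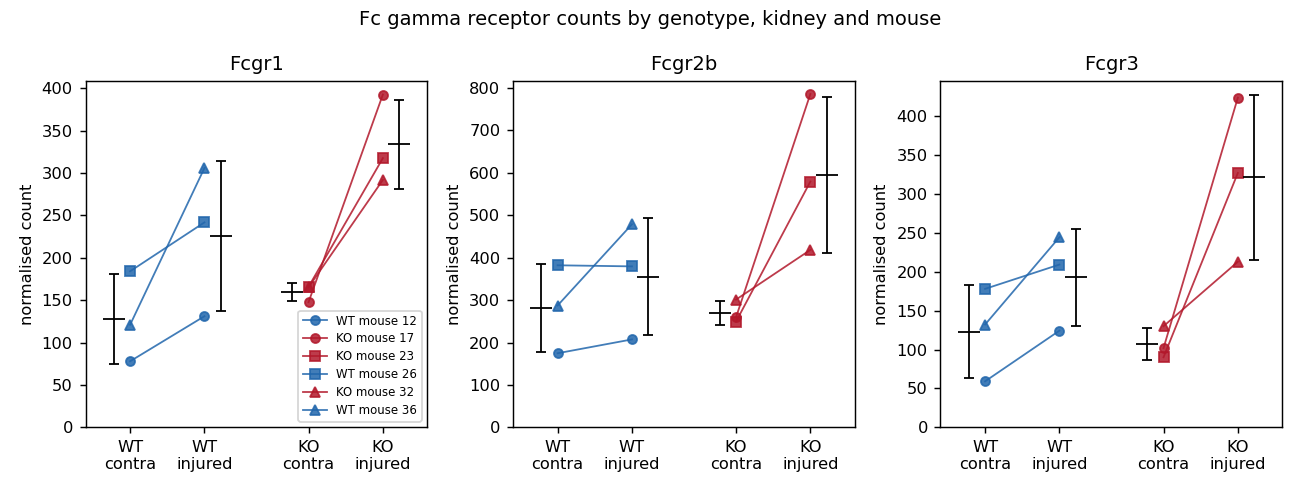
Normalised counts of Fcgr1, Fcgr2b and Fcgr3 (vertical axis, from 0) in contralateral and injured kidneys of WT mice (blue) and KO mice (red). Each point is 1 library, lines join both kidneys of a mouse, and black bars give the mean and SD of 3 mice. In KO mice every injured kidney lies above every contralateral kidney for each gene, whereas the WT groups overlap. Adgre1 and Csf1r separated in the same way in KO mice, and the share of all genes that did was not counted. None of the receptor genes passed the test of the difference between KO and WT responses.

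Fcgr1, the high-affinity activating receptor gene, was higher in the injured kidney of every mouse. Normalised counts, which are raw counts scaled to a common library size, were 78.0, 184 and 121 in the contralateral and 131, 242 and 306 in the injured kidneys of WT mice 12, 26 and 36. In KO mice 17, 23 and 32 they were 148, 166 and 165 in the contralateral and 392.5, 318 and 292 in the injured kidneys. The contralateral kidneys of the 3 KO mice were close together, and none of their injured kidneys reached down to them. Both kidneys of WT mouse 12 were the lowest of their side, so the injured and contralateral WT groups overlapped.

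Fcgr2b, the inhibitory receptor gene, was higher on the injured side in 5 of 6 mice. Its normalised counts in WT mice 12, 26 and 36 were 175, 382 and 287 in the contralateral and 207, 379.5 and 479 in the injured kidneys. In KO mice 17, 23 and 32 they were 259, 249 and 301 in the contralateral and 786, 579 and 418 in the injured kidneys. WT mouse 26 was the exception, with an injured kidney at 0.993 times its contralateral kidney, although its raw count was 1.27 times as high. The WT groups again overlapped, and the KO groups did not. The macrophage genes Adgre1 and Csf1r separated in the same way in KO mice. Their contralateral values reached 394 and 399, and their injured values began at 513 and 459. The share of all genes with such a gap was not counted.

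Fcgr3, the low-affinity activating receptor gene, was higher in the injured kidney of every mouse. Normalised counts in WT mice 12, 26 and 36 were 59.2, 178 and 132 in the contralateral and 124, 209 and 244 in the injured kidneys. In KO mice 17, 23 and 32 they were 102, 90.1 and 129.98 in the contralateral and 423, 327 and 213 in the injured kidneys. The highest injured value, in KO mouse 17, was 4.16 times that of the mouse's own contralateral kidney. The smallest change, 1.18-fold, was that of WT mouse 26.

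The effect of ischemic injury was read first, by setting both kidneys of a mouse against each other and averaging the responses of WT and KO mice. All 3 receptor genes rose. Fcgr3 went from 115 ± 41.0 to 257 ± 105 normalised counts (SD, n = 6 kidneys a side), a fitted rise of 1.15 ± 0.19 on the log2 scale (SE), or 2.21-fold (edgeR's quasi-likelihood test with mouse as a block, adjusted p = 0.000997). Fcgr1 went from 144 ± 38.5 to 280.1 ± 87.8 and rose 1.92-fold by the fit (0.94 ± 0.16, edgeR adjusted p = 0.0012). The inhibitory Fcgr2b went from 276 ± 68.2 to 475 ± 196 and rose 1.64-fold (0.71 ± 0.19, edgeR adjusted p = 0.027).

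Of all 682 genes, 54 passed in that comparison (7.92%), 50 of them higher in the injured kidney (7.33%), and the median of all genes was -0.07. The Fcgr1 and Fcgr3 calls held whichever mouse was left out, with adjusted p up to 0.020 and 0.022. That of Fcgr2b was lost without mouse 12, 17, 23, 26 or 36 (edgeR adjusted p from 0.074 to 0.32). Without the pairing of both kidneys of a mouse, none of the 3 passed (edgeR adjusted p = 0.077, 0.25 and 0.077 for Fcgr1, Fcgr2b and Fcgr3). Fcgr2b also missed the threshold with DESeq2's size factors (edgeR adjusted p = 0.072), and Fcgr1 and Fcgr2b did with scaling by the positive controls (0.067 and 0.41).

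Fcgr4, the other activating Fc gamma receptor gene on the panel, is named here for its kinship, outside the rule for named genes. Contralateral kidneys held 216 ± 65.7 and injured kidneys 219 ± 78.7 normalised counts of it (SD, n = 6), with a fitted difference of -0.01 ± 0.15 on the log2 scale (edgeR adjusted p = 0.99). Only mice 32 and 36 had a higher normalised count of it in the injured kidney (2 of 6 mice), while its raw count was higher there in 5 of 6 mice. In the mouse genome Fcgr4 lies between Fcgr2b and Fcgr3, its related neighbours, in the RefSeq annotation of GRCm38.p6. Probe sequences are not given here, so whether these probes share targets was not tested.

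**Figure D2:**
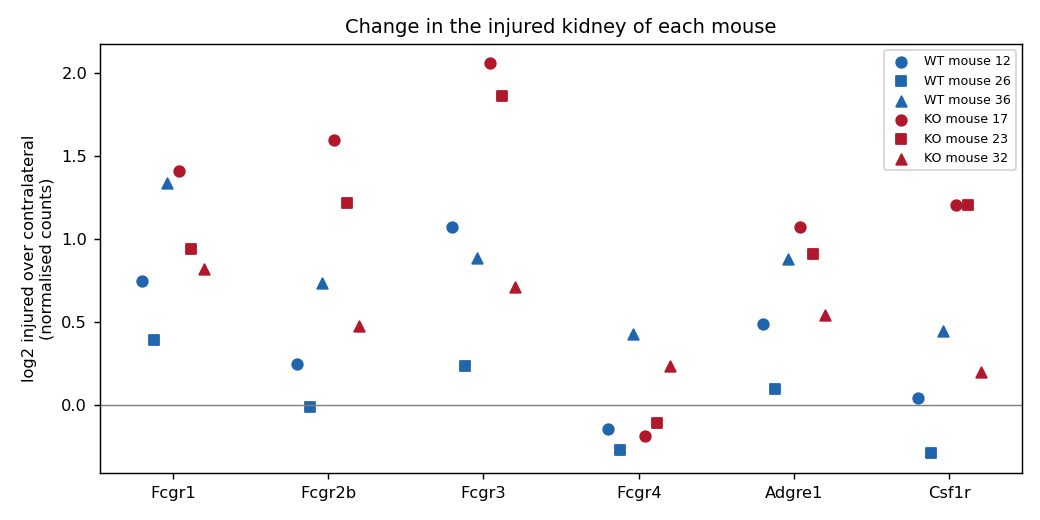
Log2 ratio of the injured over the contralateral normalised count in each mouse (vertical axis) for the 3 receptor genes, Fcgr4 and the macrophage genes Adgre1 and Csf1r. Each point is 1 mouse, blue for WT and red for KO. Fcgr1 and Fcgr3 lie above 0 in 6 of 6 mice, Fcgr2b in 5 and Fcgr4 in 2, and KO mice 17 and 23 show the highest values for Fcgr2b and Fcgr3.

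Within WT mice, none of the 3 receptor genes passed the test. The fitted difference between injured and contralateral kidneys was 0.83 ± 0.23 on the log2 scale for Fcgr1 (SE, edgeR adjusted p = 0.11). It was 0.73 ± 0.26 for Fcgr3 (edgeR adjusted p = 0.35) and 0.33 ± 0.27 for Fcgr2b (edgeR adjusted p = 0.88). The folds of mice 12, 26 and 36 were 1.68, 1.31 and 2.53 for Fcgr1, and 2.10, 1.18 and 1.85 for Fcgr3, so both were higher in 3 of 3 mice. Those for Fcgr2b were 1.19, 0.993 and 1.67.

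Of 682 genes, 5 passed in WT mice (0.733%), all higher. Fcgr1 and Fcgr3 passed in a fit of the 6 WT libraries alone (edgeR adjusted p = 0.00013 and 0.00083), which takes its spread from those mice only. They also passed without KO mouse 17 (edgeR adjusted p = 0.020 and 0.041) or KO mouse 32 (edgeR adjusted p = 0.0019 and 0.011), while Fcgr2b passed in none of these fits. Without WT mouse 36 the differences were smaller, 0.50 for Fcgr1, 0.58 for Fcgr3 and 0.047 for Fcgr2b, and none passed.

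Within KO mice, all 3 receptor genes rose in the injured kidney. Fcgr3 rose 2.94-fold by the fit, or by 1.56 ± 0.27 on the log2 scale (SE, edgeR adjusted p = 0.0025). Fcgr2b rose 2.15-fold (1.10 ± 0.27, edgeR adjusted p = 0.018) and Fcgr1 2.08-fold (1.06 ± 0.23, edgeR adjusted p = 0.0078). The folds of mice 17, 23 and 32 were 4.16, 3.63 and 1.64 for Fcgr3, and 3.03, 2.32 and 1.39 for Fcgr2b. Mouse 32 changed least of the KO mice for each of the 3 genes, with 1.77-fold for Fcgr1 against 2.66 and 1.92 in mice 17 and 23.

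Among all 682 genes, 46 passed in KO mice (6.74%), 45 of them higher (6.6%). Without mouse 23 none of the 3 receptor genes passed (edgeR adjusted p = 0.12, 0.30 and 0.058 for Fcgr1, Fcgr2b and Fcgr3), nor without the block (0.21, 0.21 and 0.096). Fcgr2b also missed the threshold without mouse 12, 17 or 26 (edgeR adjusted p from 0.054 to 0.10) and in a fit of the KO libraries alone (0.11), and Fcgr1 with housekeeping scaling (0.073). Housekeeping counts of the injured kidney in mouse 17 were 701 against 164 in its contralateral kidney, and in mouse 23 they were 318 against 169, but 118 against 157 in mouse 32. Raw Fcgr3 in the injured kidney was 13.9, 5.62 and 1.42 times that of the contralateral kidney in the same mice. The part of these housekeeping counts in the result was not tested.

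Whether the injury response itself differed between the genotypes was tested as an interaction. The KO response was larger than the WT response by 0.82 ± 0.38 on the log2 scale for Fcgr3, by 0.78 ± 0.38 for Fcgr2b and by 0.23 ± 0.32 for Fcgr1 (SE), and none passed (edgeR adjusted p = 0.41, 0.41 and 0.66). The per-mouse folds of the genotypes overlapped for each gene, because WT mouse 36 changed more than KO mouse 32. With edgeR no gene of the 682 passed (0%), although 75 had an unadjusted p under 0.05. Fcgr3 was among the 75, at an unadjusted edgeR p of 0.044. DESeq2 also called none.

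This comparison depended on KO mouse 32. Without that mouse, the difference was 1.35 for Fcgr3 (edgeR adjusted p = 0.00019) and 1.20 for Fcgr2b (edgeR adjusted p = 0.0017), and 323 genes passed in place of 0. Leaving out any other mouse gave 0 of the 3. No label sets mouse 32 apart, but its injured library had the lowest total (255274) and the lowest housekeeping mean (118) of all libraries. Among KO mice, only in mouse 32 was the housekeeping mean lower in the injured than in the contralateral kidney (118 against 157). In WT mouse 36 it was lower too (172 against 272). The part of these counts in the result was not tested.

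**Figure D3:**
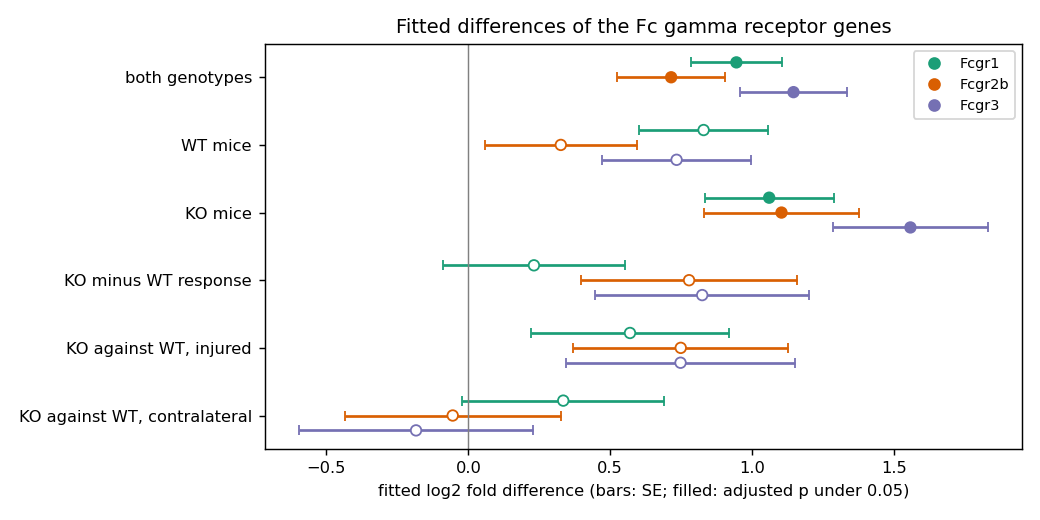
Fitted log2 fold differences (horizontal axis) of Fcgr1, Fcgr2b and Fcgr3 with their SE as bars, for 6 comparisons from top to bottom. Filled points had an adjusted p under 0.05. All 3 are filled for both genotypes averaged and for KO mice, and none in the comparisons of KO with WT.

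KO and WT mice were then compared within each kidney side. In injured kidneys the KO mean was higher for all 3 genes, with 334 ± 52.3 against 226 ± 88.4 normalised counts for Fcgr1, 595 ± 184 against 355 ± 137 for Fcgr2b and 321 ± 105 against 193 ± 61.7 for Fcgr3 (SD, n = 3 mice each). The fitted differences of 0.57 ± 0.35, 0.75 ± 0.38 and 0.75 ± 0.40 on the log2 scale did not pass (SE, edgeR adjusted p = 0.9999 each). WT mouse 36 lay above the lowest KO mouse for each gene, so the groups overlapped. Without WT mouse 12 the differences were 0.25, 0.43 and 0.46, and with positive control scaling 1.03, 1.30 and 1.26. Of 682 genes, edgeR called none (0%), with 5 at an unadjusted p under 0.05, and DESeq2 called 3, none of them an Fc gamma receptor gene.

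In contralateral kidneys, Fcgr1 stood at 159.5 ± 10.3 normalised counts in KO and 128 ± 53.4 in WT mice (SD, n = 3 each). Fcgr2b stood at 270.0 ± 27.5 and 281 ± 104, and Fcgr3 at 107 ± 20.5 and 123 ± 59.9. The fitted differences, KO minus WT, were 0.33 ± 0.36, -0.06 ± 0.38 and -0.18 ± 0.41 on the log2 scale, smaller than their errors (edgeR adjusted p = 0.72, 0.94 and 0.81). EdgeR called none of 682 genes (0%), with 3 at an unadjusted p under 0.05, and DESeq2 called none. The sign was not stable under other scalings. Fcgr2b was at 0.08 when scaled by the housekeeping genes, and Fcgr1 at -0.20 when scaled by the positive controls.

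Across all 4 groups, the order of the mean level from low to high ended the same way for each receptor gene, with injured KO highest and injured WT next to it. The contralateral WT group was lowest for Fcgr1 and the contralateral KO group for Fcgr2b and Fcgr3. Each group overlapped with the next in that order, so no pair of neighbours was separated by more than the spread between mice.

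The balance between activating and inhibitory receptor was read as the ratio of raw counts within a library, which no scaling between libraries can change. Since probes differ in efficiency, the ratio does not give the proportion of RNA molecules, and only its change is interpreted. In contralateral kidneys, Fcgr3 over Fcgr2b was 0.338, 0.466 and 0.460 in WT mice 12, 26 and 36, and 0.392, 0.361 and 0.431 in KO mice 17, 23 and 32. In their injured kidneys it was 0.599, 0.551 and 0.510, and 0.539, 0.564 and 0.508. Every injured kidney lay above every contralateral kidney, whatever the genotype.

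The Fcgr3 over Fcgr2b ratio thus averaged 0.408 ± 0.053 in contralateral and 0.545 ± 0.034 in injured kidneys (SD, n = 6). It was higher in 6 of 6 mice, by 0.43 ± 0.27 on the log2 scale (SD). The exact two-sided sign-flip test over the mice gave p = 0.031, the smallest that 6 mice allow, and 0.094 after adjustment over the 6 ratio tests, which misses 0.05. An exact permutation test of 6 against 6 libraries, with no pairing by mouse, gave an adjusted p of 0.0065. That test treats both kidneys of a mouse as independent, against the design, so it does not replace the paired test.

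Fcgr1 over Fcgr2b behaved less uniformly. In WT mice 12, 26 and 36 it was 0.446, 0.482 and 0.421 in the contralateral and 0.632, 0.637 and 0.639 in the injured kidneys. In KO mice 17, 23 and 32 it was 0.569, 0.665 and 0.548 in the contralateral and 0.499, 0.548 and 0.697 in the injured kidneys. The ratio was thus higher on the injured side in 3 of 3 WT mice and lower in KO mice 17 and 23. With each library's mean negative control subtracted, the ratio of mouse 17 was 0.486 in the contralateral and 0.491 in the injured kidney, so that 5 of 6 mice were higher. Over all mice the change was 0.23 ± 0.37 on the log2 scale (SD, 4 of 6 higher, exact sign-flip p = 0.19, adjusted p = 0.23), and 0.37 after that subtraction (exact sign-flip adjusted p = 0.11).

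The change of Fcgr1 over Fcgr2b was 0.50 ± 0.10 on the log2 scale in WT mice and -0.04 ± 0.34 in KO mice (SD, n = 3 each). After subtraction these means were 0.65 and 0.091. The WT changes, from 0.40 to 0.60, lay above all KO changes, from -0.28 to 0.35. The exact permutation test of that difference gave p = 0.1, the smallest that 3 against 3 allow, and an adjusted p of 0.2. In contralateral kidneys the KO ratio was higher by 0.40 on the log2 scale, with no overlap between the genotypes (exact permutation p = 0.1, adjusted p = 0.3). In injured kidneys the difference was -0.14 with overlap (exact permutation p = 0.4, adjusted p = 0.7).

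**Figure D4:**
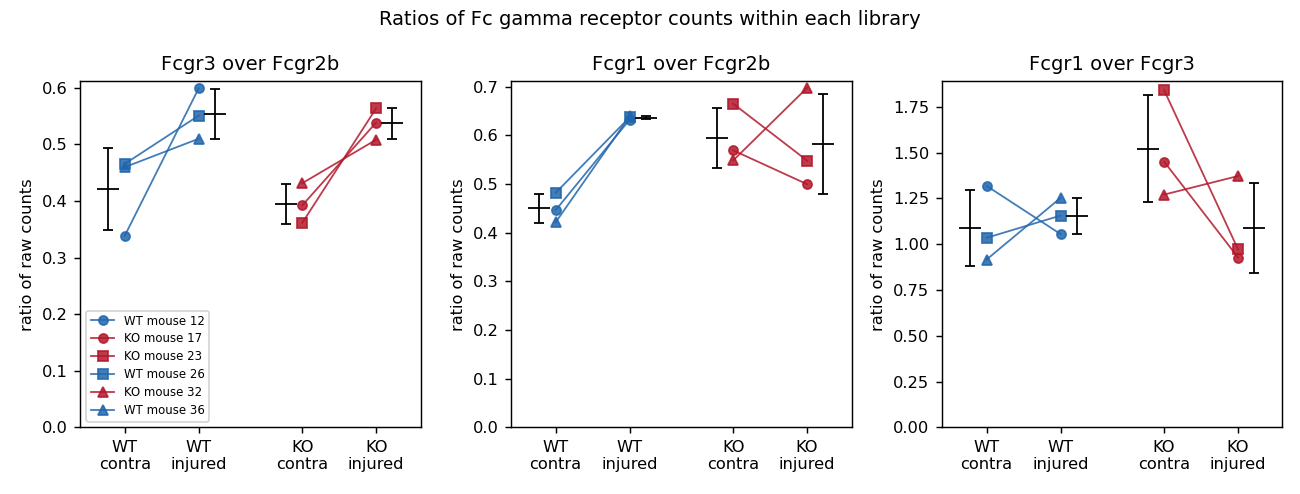
Ratios of raw counts within each library (vertical axes, from 0) for Fcgr3 over Fcgr2b, Fcgr1 over Fcgr2b and Fcgr1 over Fcgr3, by genotype and kidney. Points are libraries, lines join both kidneys of a mouse, and black bars give the mean and SD of 3 mice. Fcgr3 over Fcgr2b is higher on the injured side in 6 of 6 mice, whereas Fcgr1 over Fcgr2b is higher in all WT mice and in KO mouse 32.

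For Fcgr3 over Fcgr2b the genotypes did not separate. Its change was 0.41 ± 0.37 on the log2 scale in WT and 0.45 ± 0.20 in KO mice (SD, n = 3 each), a difference of 0.04 (exact permutation p = 0.9). The geometric mean of Fcgr1 and Fcgr3 over Fcgr2b went from 0.459 ± 0.039 to 0.575 ± 0.034 (SD, n = 6). It was higher on the injured side in 6 of 6 mice. Its change was 0.45 ± 0.18 in WT and 0.20 ± 0.08 in KO mice on the log2 scale, with no test. Fcgr1 over Fcgr3 changed by -0.19 ± 0.53 (SD, 3 of 6 higher, exact sign-flip p = 0.41). The activating Fcgr4 was not part of these ratios. The injured over contralateral raw count of Fcgr4 was 0.994, 1.06 and 1.03 in WT mice 12, 26 and 36. That of Fcgr2b was 1.30, 1.27 and 1.27. In KO mice 17, 23 and 32 they were 2.94, 1.44 and 1.02 against 10.1, 3.60 and 1.21. Fcgr4 over Fcgr2b was thus lower on the injured side in every mouse, with no test.

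Subtraction of the mean negative control raised the change of Fcgr3 over Fcgr2b from 0.43 to 0.69 on the log2 scale, and that of Fcgr1 over Fcgr3 went from -0.19 to -0.32. Raw Fcgr3 in contralateral kidneys, 69 to 143, stood nearer to the negative controls than raw Fcgr2b, 181 to 325.

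The level of the receptors relative to macrophage genes was read in the same way, as the raw count over the geometric mean of Adgre1 and Csf1r in the same library. Fcgr3 relative to these genes was 0.318 ± 0.022 in contralateral and 0.475 ± 0.072 in injured kidneys (SD, n = 6), with no overlap, and higher in 6 of 6 mice. The change was 0.57 ± 0.30 on the log2 scale (SD, exact sign-flip p = 0.031, adjusted p = 0.094). Relative Fcgr1 was higher in 5 of 6 mice, by 0.37 ± 0.27, and relative Fcgr2b in 5 of 6, by 0.14 ± 0.17 (SD, exact sign-flip p = 0.062 and adjusted p = 0.094 each). None of the 3 passed after adjustment over the 6 ratio tests. Background subtraction raised the relative Fcgr3 change to 0.86, with the same adjusted p.

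The macrophage genes themselves were higher in injured kidneys. Adgre1 rose by 0.67 ± 0.19 on the log2 scale (SE, edgeR adjusted p = 0.034), and Csf1r differed by 0.47 ± 0.20 (edgeR adjusted p = 0.24). Of 11 macrophage markers, all measured above the limit in all 12 libraries, 8 rose, against 7.33% of all 682 genes, and none fell. Their summed normalised count ran from 2654 to 5421 in contralateral and from 3830 to 8899 in injured WT kidneys, and from 3069 to 4517 and from 6956 to 12385 in those of KO mice. The fitted changes of the 11 markers ran from 0.08 to 1.31 on the log2 scale, with a median of 0.94. Adgre1 and Csf1r lay below that median, and Fcgr1, Fcgr2b and Fcgr3 rose by 0.94, 0.71 and 1.15. The ratio to Adgre1 and Csf1r thus does not show that the receptors rose more than macrophage genes as a whole. In RNA from many cells, more macrophages and more receptor RNA per macrophage cannot be told apart.

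Other cells can carry Fc gamma receptors too, among them monocytes, neutrophils, B cells, NK cells and mast cells. Of 4 monocyte markers that passed the filter, Ccr2 and Fn1 rose, and the summed normalised count of the 4 ran from 2910 to 14955 in contralateral WT, 2930 to 12958 in injured WT, 3868 to 4150 in contralateral KO and 2952 to 11202 in injured KO kidneys. None of 7 neutrophil markers passed the test, where 7.92% of all genes did, with sums of 269 to 1255, 261 to 1140, 659 to 752 and 268 to 1234 in the same order. Raw counts of these 7 were low, from 29 for Elane to 284 for S100a9. Elane and Cxcr2 reached the limit in only 5 and 7 of 12 libraries. The B cell marker Ms4a1 ran from 55.4 to 170, 56.3 to 169, 139 to 205 and 45.9 to 199, and did not pass. Its raw counts ran only from 91 to 157, and the part of library scaling in these normalised values was not tested. Both NK cell markers on the panel were below the filter. Of 5 mast cell and basophil markers on the panel, Fcer1a read 95 to 195 raw counts and reached the limit in 12 of 12 libraries, and Kit read 35 to 138 and reached it in 6. Neither passed the test, and Cpa3, Ms4a2 and Tpsb2 were below the filter, with raw counts of up to 14, 26 and 49. Of 5 kidney tubule genes, Egf fell by 1.80 ± 0.49 on the log2 scale in injured kidneys (SE, edgeR adjusted p = 0.033). Fbp1, a gluconeogenesis gene, fell by 0.85 ± 0.24 (edgeR adjusted p = 0.038). Fbp1 read 28 to 513 raw counts, however, and reached the limit in only 4 of 12 libraries. Havcr1, a gene known to be induced in injured tubules, rose by 1.01 ± 0.19 (edgeR adjusted p = 0.0025). The part of other cell types in the receptor changes was not tested.

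Other genes of the pathway were read from a list of 46 genes of Fc receptors and their signalling, chosen with earlier results of these data known. It had 17 members on the panel and 14 that passed the filter. In both genotypes averaged, 2 of these 14 rose, against 7.33% of all 682 genes, and none fell. The median of the 14 was 0.19 on the log2 scale against -0.07 for all genes. Sirpa, which encodes an inhibitory receptor of macrophages for CD47, rose by 0.84 ± 0.19 (SE, edgeR adjusted p = 0.0094). Ptprc, which encodes the leukocyte phosphatase CD45, rose by 0.71 ± 0.16 (edgeR adjusted p = 0.011).

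Syk, the kinase that binds the phosphorylated motifs of the activating receptors, differed by 0.50 ± 0.18 on the log2 scale and did not pass (SE, edgeR adjusted p = 0.12). Vav1, a guanine nucleotide exchange factor downstream of Syk, differed by 0.52 ± 0.20 (edgeR adjusted p = 0.16). In KO mice Ptprc (1.05 ± 0.24, edgeR adjusted p = 0.00998) and Sirpa (1.12 ± 0.27, edgeR adjusted p = 0.018) rose. In WT mice and in the comparisons between genotypes none of the 14 passed. Fcer1a, the alpha chain gene of the IgE receptor, had the smallest p of the list for the difference of the responses, with -1.20 ± 0.44 (edgeR adjusted p = 0.41).

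The levels of the 3 receptor genes moved together across the 12 libraries. Pearson's r of their log2 normalised counts was 0.97 between Fcgr2b and Fcgr3, 0.94 between Fcgr1 and Fcgr2b and 0.93 between Fcgr1 and Fcgr3. Of 498 genes with a mean normalised count of at least 100, those most like Fcgr1 were the mannose receptor gene Mrc1 (0.98), the anaphylatoxin receptor gene C3ar1 (0.97), the integrin gene Itgam (0.96), the perforin-like Mpeg1 (0.96) and the lipid-sensing receptor gene Trem2 (0.96). Most like Fcgr2b were C5ar1, the other anaphylatoxin receptor gene (0.98), Mpeg1, the checkpoint gene Vsir and C3ar1 (0.97 each) and the complement gene C1qa (0.97). Most like Fcgr3 were C1qa, the lysosomal membrane gene Laptm5 and the protease gene Ctss (0.98 each), Mpeg1 (0.97) and the lysosomal glycoprotein gene Cd68 (0.97). These values describe libraries that share the same scaling and differ in housekeeping counts, and the genes were picked for the highest r.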

How the data were processed

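The authors deposited raw counts for 768 probes, as whole numbers whose totals differ between libraries, per the file's values, with control probes still in the table. Per the labels, RNA was isolated from F4/80-selected cells and processed by the NanoString protocol. The sources used here name neither the panel nor each library's cartridge and lane, so no batch could be tested. Of the probes, 20 were set apart as housekeeping genes by name with the table open, 6 were positive and 8 negative controls, and 734 were endogenous.

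Genes with a raw count of at least 53.1 in at least 3 libraries were kept (682). Counts were scaled by TMM, and a normalised count is a count scaled to the geometric mean, 231710, of the libraries' effective sizes. Injury responses were fitted with edgeR 4.0.16 (R 4.3.3) over 12 libraries with mouse as a block. The pairing comes from the animal, since each mouse's contralateral kidney is its control by the series' design. As a check, the deviations of both kidneys of a mouse from their group means correlated at 0.96, 0.88 and 0.72 in WT mice 12, 26 and 36, and at -0.13, 0.37 and -0.49 in KO mice 17, 23 and 32. KO and WT mice were compared on 4 group means without a block. P-values were adjusted by Benjamini-Hochberg over the 682 genes, with a threshold of 0.05. Log2 ratios of raw counts were tested by exact permutation (scipy 1.17.1), adjusted over 6 ratios. The exact tests of KO against WT mice, 3 against 3, cannot go below p = 0.1.

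Genes named are the 3 receptors, Adgre1, Csf1r, Aif1, list members past the threshold or with the 4 smallest p, and the 5 genes most correlated with each receptor. Genes and lists were chosen with earlier results of these data known. Only the fit of the averaged injury response was run on simulated counts with known changes. These counts held no differences between mice, so neither the block nor the other comparisons were tested that way. Alternatives were DESeq2 1.42.0, other scalings, background subtraction, no filter, no block, fewer libraries and each mouse left out.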

Additional observations from a re-analysis of the deposited data

How the results depend on the processing

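The sizes of the injury responses kept their direction for Fcgr1, Fcgr2b and Fcgr3 under every alternative run, while several calls did not. Of 3 receptor genes called in both genotypes averaged and in KO mice, scaling by the positive controls left 1 each, and a fit with no replicate block left 0 each. With each mouse left out in turn, the number called ran from 2 to 3 for both genotypes averaged, 0 to 2 in WT mice, 0 to 3 in KO mice and 0 to 2 for the difference of the responses. The fit of WT libraries alone called 2. Positive control scaling moved the median of all genes by 0.34 in both genotypes averaged and by 0.64 in KO mice. Under it Fcgr1, Fcgr2b and Fcgr3 stood at 1.27, 1.05 and 1.49 in both genotypes averaged, with larger errors (SE 0.45 in place of 0.16 for Fcgr1), and in KO mice Fcgr1 and Fcgr2b stood at 1.69 and 1.74. The block rests on the animal. Without it the ratio changes were the same, 0.426 for Fcgr3 over Fcgr2b and 0.569 for Fcgr3 over Adgre1 and Csf1r. The exact permutation test without pairing gave each an adjusted p of 0.0065. That test treats both kidneys of a mouse as independent, so it does not replace the paired test.

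Signs turned where the difference was small. The Fcgr1 difference of the responses was -0.035 with housekeeping scaling and 0.83 with positive control scaling. Between genotypes in contralateral kidneys, Fcgr2b was at 0.079 with housekeeping scaling and ran from -0.35 without mouse 12 to 0.070 without mouse 26, Fcgr3 from -0.57 to 0.035 without the same mice, and Fcgr1 at -0.20 with positive control scaling. The difference of the change of Fcgr3 over Fcgr2b was -0.058, -0.041 and -0.088 without mouse 23, 26 or 36, and up to 0.249 without another mouse. KO minus WT in injured kidneys ran from -0.099 to 0.017, the latter without mouse 12, for Fcgr3 over Fcgr2b, and from -0.28 to 0.0035, the latter without mouse 17, for Fcgr1 over Fcgr3.

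Counts over all genes moved more. For both genotypes averaged, 54 became 14 with no block, 33, 26 and 24 without mouse 12, 23 or 36, and 223 without mouse 32. The 5 of WT mice became 10 with DESeq2, 2 with its size factors, 0 with housekeeping scaling, 2 with positive control scaling, 0 with no block, 53 in the fit of WT libraries alone, and 0, 27, 1, 1, 48 and 0 without mouse 12, 17, 23, 26, 32 or 36. The 46 of KO mice became 97 with DESeq2, 3 with no block, 26 in the fit of KO libraries alone, 11 without mouse 23 and 369 without mouse 32. The 0 genes for the difference of the responses became 1 with positive control scaling or without mouse 17, and 323 without mouse 32. Keeping the housekeeping genes among those tested, an alternative chosen after seeing the data, changed no receptor call. The causes were not tested. Of the 3 receptor genes, Fcgr3 in contralateral kidneys stood nearest to the background.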
